A study of Homo sapiens with 191 samples.

Results

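The genes described here are 6 STAT factors (STAT2, STAT3, STAT4, STAT5A, STAT5B and STAT6) and 3 Janus kinases (JAK1, JAK2 and JAK3), 9 of the 20098 protein-coding genes placed on the map. They were taken as a named list, with no threshold on a measured value, and the other members of both families were not analysed here. Accessible regions were assigned to a gene when their centre lay in the gene body or within 10 kb on either side, and were called promoter regions when the centre lay within 1 kb of any transcription start site (TSS) annotated for the gene. By that rule 40 of the 50000 regions in the list belonged to the 9 genes, 22 to the STAT factors and 18 to the Janus kinases.

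The cells were GM12878, a human B lymphoblastoid line made by Epstein-Barr virus transformation. They were unstained, formaldehyde-fixed and permeabilised, then transposed in bulk and sorted singly into wells, with 96 libraries from plate 1 and 95 from plate 2 analysed here. All libraries formed 1 group with no treatment and no control, and the regions came from 1 list that the authors called on the aggregated cells. Each region was 501 bp wide and carried a score, the -log10 of its q-value, from 16.0 to 4437.6 with a median of 31.6, so the text describes levels within 1 pooled map, without replicates, spread or any test, and the read depth behind a region is unknown. A gene without a region had none among the strongest 50000, which does not show closed chromatin. The line matched its label at 6 of 7 B cell marker genes with a promoter region, against 0 of 4 T cell, 0 of 3 erythroid and 0 of 2 hepatocyte markers.

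Janus kinases are tyrosine kinases bound to the inner part of cytokine receptors. When a cytokine brings receptor chains together, the kinases phosphorylate the receptor and then the STAT factors that dock there, and the paired STAT factors enter the nucleus and bind DNA. In B cells this route carries interleukin-4 signals through STAT6, interleukin-21 signals through STAT3 and interferon signals through STAT2, and JAK3 acts beside JAK1 at receptors that hold the common gamma chain.

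All 9 genes had a promoter region (100%, exact binomial 95% interval 66.4 to 100), where 57.2% of all protein-coding genes had one. These genes have many annotated starts, from 4 for JAK2 to 29 for STAT2 against a median of 5, and among the genes with at least 4 start positions the share was 69.9%. Apart from JAK2, each of the genes had 11 starts or more, and among all genes with at least 11 the share was 80%. With only the principal TSS of each gene, 8 of the 9 kept a promoter region, against 53% of genes, and STAT5B was the exception. A promoter region always lies over the gene and its flanks, so a region there at 9 of 9 genes follows from the first count. Over all genes that share was 74.7%. The list was drawn up with earlier results of these data known, so 9 of 9 is a description. The interval covers the number of genes only and treats them as separate, though STAT5A and STAT5B were both counted through 1 shared region.

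The sequences behind the main results are shown first, so that the values can be read against them. They are hg19, plus strand, and each is the stretch of a promoter region nearest its centre that lies outside every annotated exon, at most 200 bases long. Capitals mark matches to short consensus letters on either strand, leaving out the 3 most frequent sets of letters (SP, NFY and E2A), whose matches stay in lower case. The first set gives the strongest promoter region of STAT2, JAK2, JAK1, STAT6 and STAT3, and the region that STAT5A and STAT5B share.
STAT2, chr12:56753988-56754187: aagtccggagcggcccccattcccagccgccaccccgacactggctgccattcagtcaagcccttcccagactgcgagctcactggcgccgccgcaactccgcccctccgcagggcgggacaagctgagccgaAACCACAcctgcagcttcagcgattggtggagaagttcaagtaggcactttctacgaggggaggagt
JAK2, chr9:4985174-4985271: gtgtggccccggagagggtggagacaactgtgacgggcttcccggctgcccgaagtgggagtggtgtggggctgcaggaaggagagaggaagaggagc
JAK1 internal region, chr1:65329937-65330136: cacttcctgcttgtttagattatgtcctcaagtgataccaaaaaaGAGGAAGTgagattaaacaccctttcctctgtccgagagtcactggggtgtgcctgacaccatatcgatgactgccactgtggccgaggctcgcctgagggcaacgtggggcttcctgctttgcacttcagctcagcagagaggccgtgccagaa
STAT6 upstream region, chr12:57506046-57506245: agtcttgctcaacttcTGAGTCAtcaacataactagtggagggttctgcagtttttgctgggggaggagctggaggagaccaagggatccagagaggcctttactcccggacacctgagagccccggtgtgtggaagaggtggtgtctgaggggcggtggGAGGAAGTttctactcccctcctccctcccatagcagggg
STAT3, chr17:40540584-40540783: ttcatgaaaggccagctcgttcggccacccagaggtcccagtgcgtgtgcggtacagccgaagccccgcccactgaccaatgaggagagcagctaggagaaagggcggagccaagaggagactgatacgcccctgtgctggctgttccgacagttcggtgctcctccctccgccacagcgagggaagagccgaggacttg
STAT5A and STAT5B, chr17:40440652-40440709: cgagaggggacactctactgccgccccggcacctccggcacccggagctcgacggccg
In the STAT2 stretch the capitals are a RUNX match, in the JAK1 stretch a PU.1 match, and in the STAT6 stretch an AP-1 match followed by a PU.1 match. PU.1 and RUNX proteins are transcription factors of blood cells, and AP-1 is a family of signal-responsive factors.

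The second set gives both other promoter regions of STAT6, since they hold matches for a STAT element and for NF-kB, the factor family that Epstein-Barr virus keeps active in such lines.
STAT6 start region, chr12:57505249-57505448: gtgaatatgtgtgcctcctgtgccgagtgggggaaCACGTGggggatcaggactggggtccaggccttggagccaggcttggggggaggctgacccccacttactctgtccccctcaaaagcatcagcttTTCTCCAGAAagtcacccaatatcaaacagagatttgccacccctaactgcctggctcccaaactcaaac
STAT6 downstream region, chr12:57504327-57504526: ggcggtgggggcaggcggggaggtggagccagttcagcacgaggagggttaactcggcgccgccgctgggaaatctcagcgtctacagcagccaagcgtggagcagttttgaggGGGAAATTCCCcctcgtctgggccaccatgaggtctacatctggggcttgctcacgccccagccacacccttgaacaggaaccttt
In the start region the capitals are an E-box (CACGTG) and the element TTCTCCAGAA. In the downstream region they are overlapping NF-kB matches on both strands.

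STAT2, the STAT factor of the interferon response, lies at chr12:56735381-56753987 on the minus strand and had the strongest promoter region of the STAT factors. Its centre lay 0.16 kb upstream of the principal TSS with a score of 466.35, at or above the strongest promoter score of 82.1% of the 11503 genes that had one. A second promoter region, 700 bp upstream, scored 17.34, close to the lowest value of the list. The gene body held no region centre. The remaining 2 regions of the 4 assigned to STAT2, with scores of 34.68 and 192.88, lay in its downstream flank within 1 kb of starts of PAN2 and IL23A, so they are equally regions of those genes.

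STAT6, the factor of the interleukin-4 response, lies at chr12:57489191-57525922 on the minus strand and had 3 promoter regions. The start region was centred 204 bp upstream of the principal TSS, and the downstream region 810 bp inside the gene. Both scored 66.07. The strongest, with 159.68, was centred 1001 bp upstream of the principal TSS and 930 bp from another annotated start. The outermost annotated start, at the upstream end of the gene body, had no region. All 3 thus lay around the principal start. STAT6 had 9 regions in all, but the other 6 were in the downstream flank at NEMP1 and NAB2, with scores from 17.34 to 293.29.

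STAT2 and STAT6 are neighbours on chromosome 12 only in a loose sense. Their gene bodies were 735.2 kb apart, and no region was assigned to both. Between the bodies lay 27 regions, among them the promoter regions of STAT2 and the downstream flank regions of STAT6. Of their strongest promoter regions, that of STAT2 scored 466.35 and that of STAT6 159.68.

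STAT4, which carries interleukin-12 signals in T cells and natural killer cells, lies at chr2:191894302-192016322 on the minus strand and had 7 regions in this B cell line. Its promoter regions were centred 0.14 kb upstream and 0.45 kb downstream of the principal TSS, with scores of 96.89 and 47.42. Further in, 3 intronic regions scored 20.05, 27.15 and 21.43, all under the list median of 31.6. The strongest of the 7, with 654.76, and 1 more with 83.94 lay in the downstream flank within 1 kb of a start of another protein-coding gene. STAT4 was thus accessible at its own start at a level below that of most genes with a promoter region (42.5% were at or below it).

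**Figure D1:**
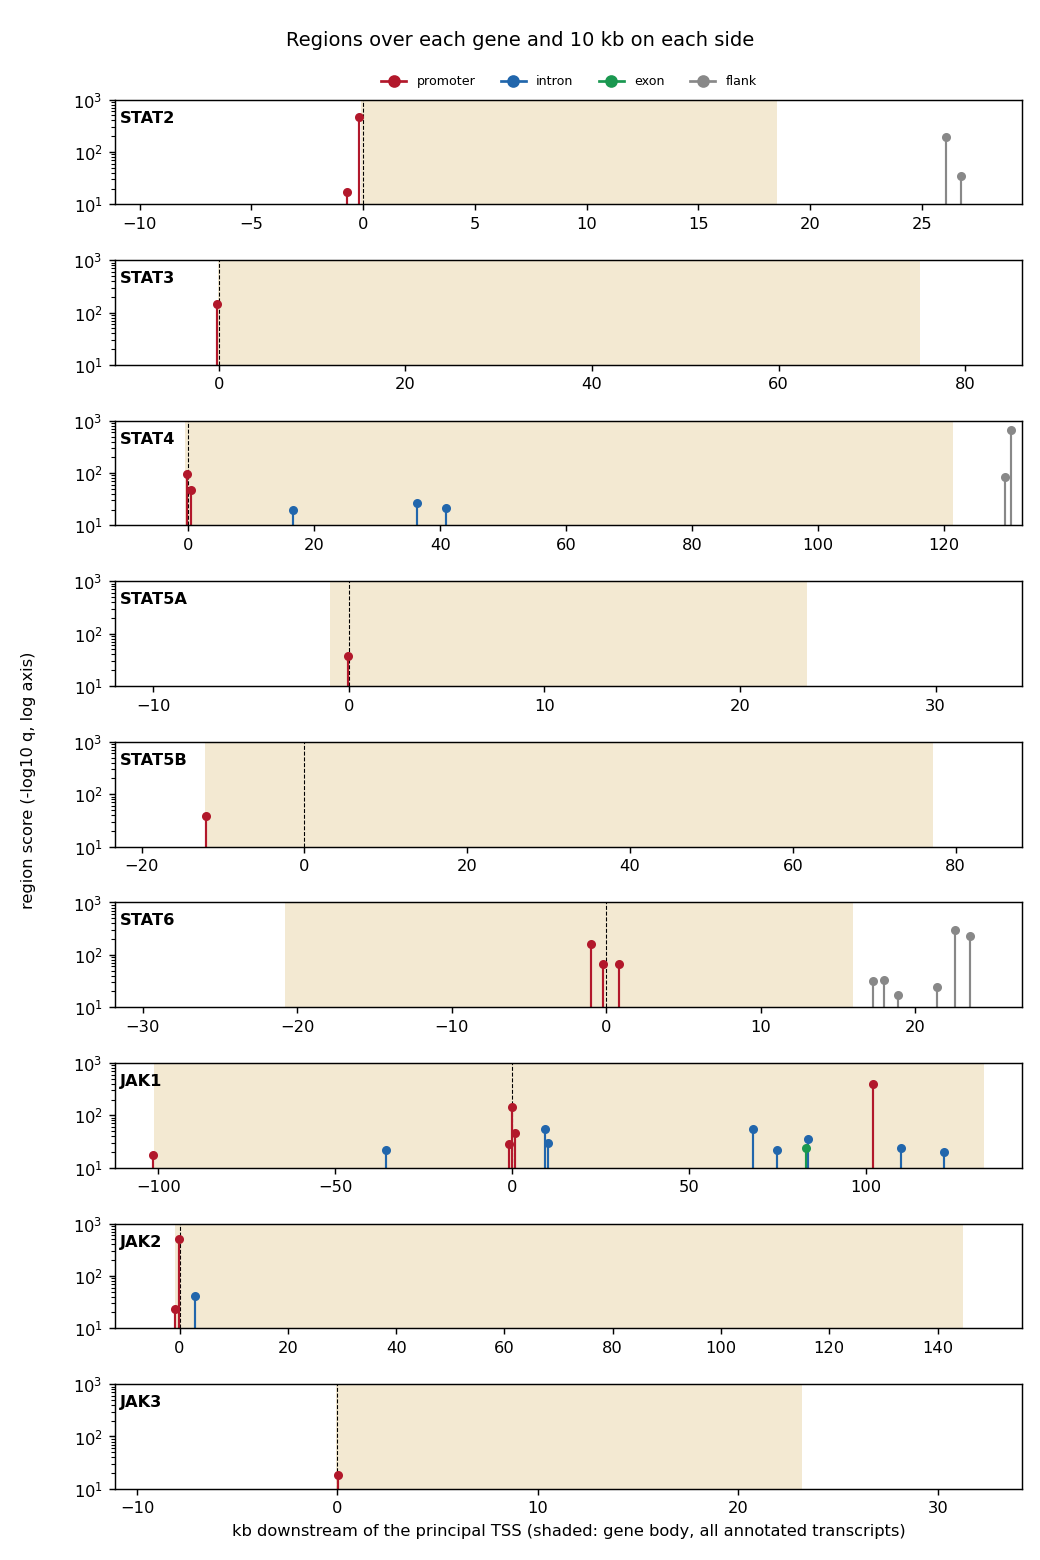
Regions assigned to each of the 9 genes. The horizontal axis gives kb downstream of the principal TSS (dashed line), the vertical axis the region score (-log10 q) on a log axis, shading the gene body, and colour the place of the region. STAT3, STAT5A, STAT5B and JAK3 each show 1 region, JAK1 shows 14 spread over the whole gene, and the strong regions of STAT4 and STAT6 beyond the shaded body lie at other genes.

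STAT3, STAT5A and STAT5B form a cluster of neighbouring genes on chromosome 17. STAT3, used by interleukin-6 and interleukin-21 receptors, lies at chr17:40465342-40540558 on the minus strand. STAT5A and STAT5B, a pair of near-copies used by interleukin-2 and many growth-factor-like cytokines, lie at chr17:40439565-40463961 on the plus strand and chr17:40351194-40440651 on the minus strand. Across the 189.4 kb of the 3 genes, and 10 kb on each side, the list held 2 regions.

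The first of the 2 was shared. Its centre lay 57 bp upstream of the principal TSS of STAT5A and 110 bp from the nearer of 2 alternative starts of STAT5B, and it was the single region assigned to more than 1 of the 9 genes. Its score was 37.79, its GC content 75.8% and its CpG count 66. The principal TSS of STAT5B lay 12107 bp from that of STAT5A and 12050 bp from the centre of this region, and had no region of its own. Only 2 of the 23 start positions of STAT5B lay within 1 kb of the shared region, each the start of a coding transcript, against 10 of the 14 of STAT5A. The annotated bodies overlapped by 1087 bp, so the assignment to STAT5B rested on those outer transcripts. Which of the paired genes an accessible region serves cannot be told from the list.

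The second was the STAT3 promoter region, centred 224 bp upstream of its principal TSS, with a score of 143.5. It stood 100225 bp from the shared region, although STAT5A and STAT3 end only 1380 bp apart. No region was listed in the body of STAT3 or between the ends of both genes. Beyond the cluster, the next regions were 133328 bp away on the STAT5B side, with a score of 47.4, and 147464 bp away on the STAT3 side, with 45.8. The median distance between neighbouring regions was 16436 bp over the list and 22829 bp on chromosome 17, and 15.98%, 11.59% and 10.2% of all distances were as long as these 3, in the order given.

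**Figure D2:**
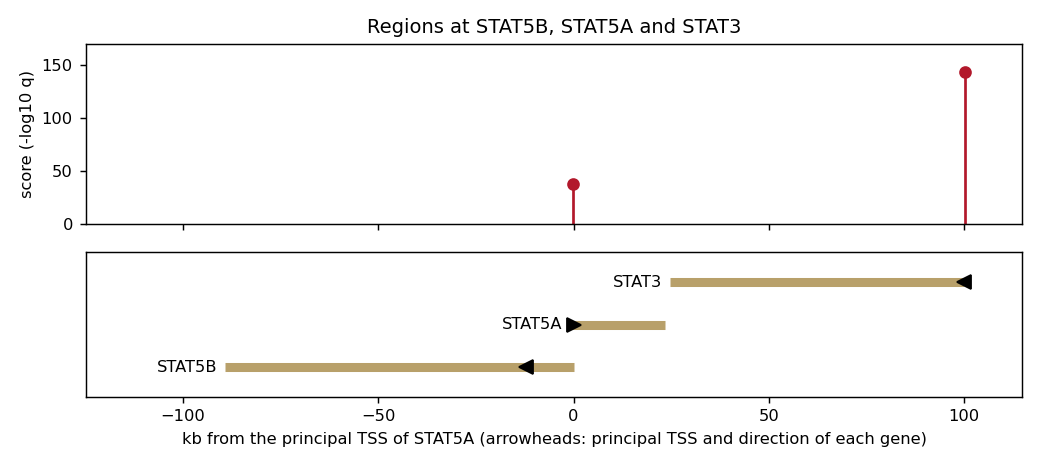
The chromosome 17 cluster in kb from the principal TSS of STAT5A. The upper panel gives the score (-log10 q) of each region, and the lower panel the gene bodies with an arrowhead at each principal TSS. The 2 regions, scored 37.79 and 143.5, stand at the starts of STAT5A and STAT3, and none stands at the arrowhead of STAT5B.

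Sequence that occurs more than once in the genome is lost when reads must map uniquely, so the uniqueness of the windows was measured. All 1927 of the 75-base words within 1 kb of the principal TSS occurred once in the genome for each of the 9 genes, STAT5B among them. Over the gene and flanks, the share of words occurring once ran from 96.17% for STAT5A to 99.45% for STAT6. Of the words in the STAT5B body outside its overlap with STAT5A, 1.62% also occurred in the rest of the STAT5A body. In the whole 381.0 kb between the outer neighbouring regions, 97.32% of the words occurred once.

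JAK1, the kinase shared by interferon, interleukin-6 and common gamma chain receptors, lies at chr1:65298906-65533437 on the minus strand and held 14 of the 40 regions. It is also the longest of the genes at 234.5 kb. Among genes of like span (1 of 10 equal classes, here from 160.5 to 2473.5 kb) the quartiles were 2, 4 and 8 regions, and 90.6% had fewer than JAK1. At its principal start, regions 75 bp upstream, 942 bp downstream and 944 bp upstream scored 143.5, 45.78 and 28.63. The region 75 bp upstream had a GC content of 73.9%.

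The strongest JAK1 region was elsewhere. It scored 404.2, was centred 102195 bp downstream of the principal TSS and counted as a promoter region only through 1 internal start, 502 bp away, of a transcript with no annotated coding sequence. Its GC content was 48.9% and it held 8 CpG, against 65 CpG at the principal start. At the other end, a region at the outermost start, 101646 bp upstream of the principal TSS, scored 17.34. The other 9 regions, 8 intronic and 1 exonic, scored from 20.05 to 55.75. With starts of protein-coding transcripts only, JAK1 had 4 promoter regions in place of 5, and the strongest of those left scored 143.5.

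JAK2, the kinase of erythropoietin and growth hormone receptors, lies at chr9:4984390-5129948 on the plus strand and had the strongest promoter region of all 9 genes. It was centred 83 bp upstream of the principal TSS with a score of 505.23, at or above 83.7% of genes with a promoter region. Its GC content was 73.3%. A second promoter region, 846 bp upstream, scored 22.83, and 1 intronic region, 2939 bp downstream, scored 40.95. No region was listed further into the gene.

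JAK3, the kinase that pairs with the common gamma chain in lymphocytes, lies at chr19:17935589-17958880 on the minus strand and had 1 region. It was centred 53 bp downstream of the principal TSS and scored 18.68, the lowest strongest promoter score of the 9 genes, with 4.3% of genes at or below it. In the stronger part of the list, at or above its median score, JAK3 had no region, and the other 8 genes kept theirs. The ranking of the kinases by promoter score was therefore JAK2, JAK1 and JAK3, with 505.23, 404.2 and 18.68. The JAK1 value is that of its internal region, and with 143.5 at its principal start the order is the same.

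**Figure D3:**
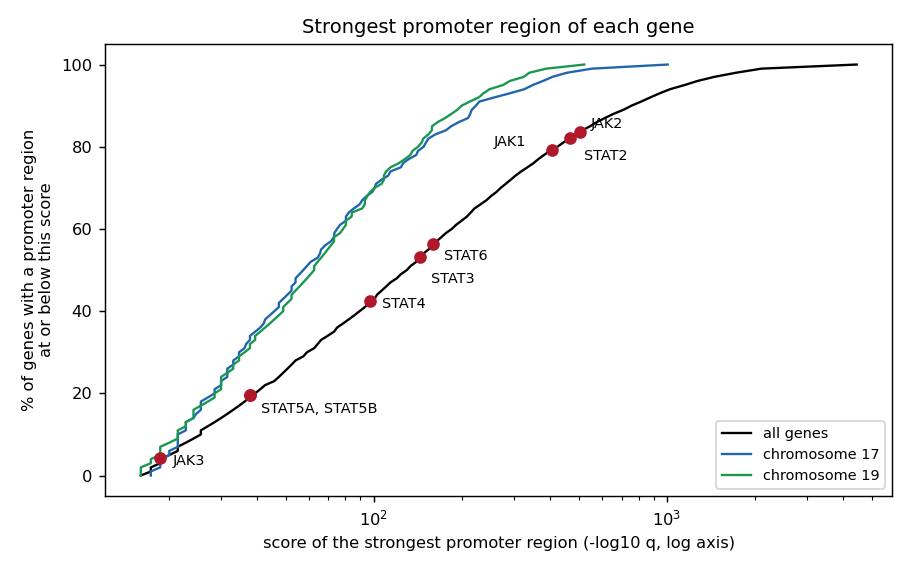
Strongest promoter score of each gene. The curves give, for the 11503 genes with a promoter region and for those on chromosomes 17 and 19, the percentage of genes at or below the score on the log axis, and the points mark the 9 genes on the curve of all genes. JAK2, STAT2 and JAK1 stand near the upper end, and STAT5A, STAT5B and JAK3 near the lower. The JAK1 point is its internal region, and at its principal start JAK1 scored 143.5, the value of STAT3.

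The position of a gene in this order moved with its chromosome. On chromosomes 17 and 19, 44.6% and 48.6% of genes had a promoter region, with median strongest scores of 57.4 and 62.6, against 57.2% and 129.6 over all chromosomes. Set against the 530 genes with a promoter region on chromosome 17, STAT3 was at or above 79.2%, in place of 53.1% over all genes. STAT5A and STAT5B, through their shared region, were at or above 34.7%, in place of 19.6%. JAK3 remained low, at or above 7.6% of the 720 such genes on chromosome 19. STAT4 was lower on its own chromosome, at or above 30.6% in place of 42.5%. For STAT2, JAK2, JAK1 and STAT6 the values were 84.3%, 85.0%, 81.1% and 54.0%, close to those over all genes. The JAK1 value rests on its internal region. The part of the chromosome in these scores was not tested.

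The number of regions also varied with span and with neighbours. The STAT factors had a median of 2.5 regions and the Janus kinases 3, against 2 for all genes. Among genes of like span, grouped in 10 classes, 1.3% had more regions than STAT6, 12.8% more than STAT4 and 9.9% more than STAT2. For STAT3 that share was 61.4%, and 70.6% of the genes in its class had a promoter region. JAK2, with 3, equalled the median of its class. Without the 8 regions within 1 kb of a start of a protein-coding gene outside the list, a comparison chosen after seeing the data, STAT6 fell from 9 regions to 5, STAT4 from 7 to 5 and STAT2 from 4 to 2, and JAK1 stayed at 14. The class counts were not reduced in this way, so the comparison with them is uneven. With 5, STAT6 was still above the upper quartile of its class, 3, and STAT4 equalled that of its own. Those 5 of STAT6 were its 3 promoter regions, all from 1 called peak, and flank regions in the body of NAB2. With 2, STAT2 was below its upper quartile of 3. Counting 1 region per called peak instead, with regions at other genes kept, gave 5 for STAT6, 5 for STAT4, 2 for STAT2 and 12 for JAK1. The class counts were not reduced in that way either.

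**Figure D4:**
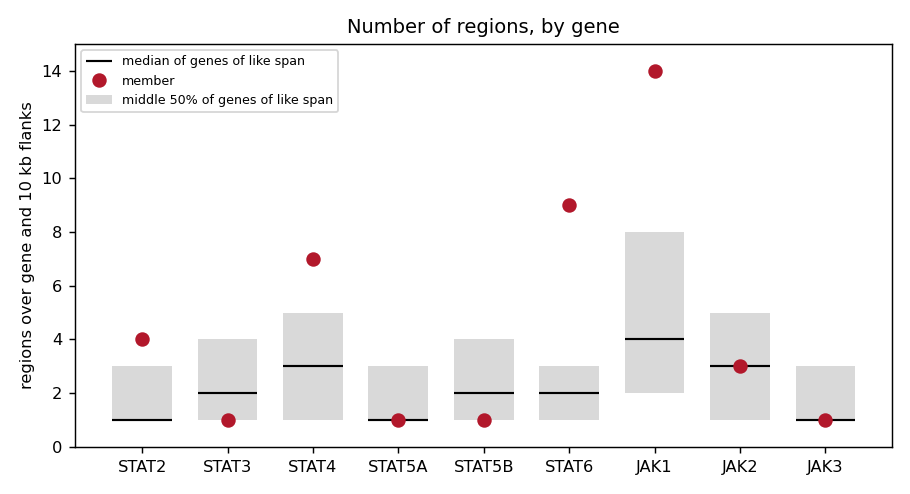
Number of regions over each gene and its 10 kb flanks (points). Grey bars give the middle 50% and black lines the median of the genes in the same of 10 classes by span. JAK1, STAT6, STAT4 and STAT2 stand above the grey bars, and none of the 9 stands below its bar.

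The scores of promoter regions were compared with those of the others. The 17 promoter regions had a median score of 66.1 (17.3 to 505.2), and the 23 others, 12 intronic, 1 exonic and 10 in flanks, a median of 31.6 (17.3 to 654.8). With the outermost TSS of each gene only, the medians were 37.8 and 34.7, and with 1 region per called peak 143.5 and 28.6, so the size of the gap depended on these choices. In the whole list the medians were 64.3 for the 32.7% of regions at a protein-coding start and 25.7 for the rest. These sets, used for scores and GC content, are not defined alike. Of the 23 others, 8 lay within 1 kb of a start of a protein-coding gene outside the 9, whereas the rest of the list excluded every such start. Mean GC content was 59.8% in the promoter regions and 52.7% in the others, against 61.3% and 49.3% in the list. The 9 promoter regions of the STAT factors had a median of 66.1 and the 8 of the Janus kinases 37.2. The 40 regions came from 29 called peaks, since 26 of them were 1 of several summits in a peak. Some neighbouring regions were thus parts of 1 peak, and whether they share reads was not examined.

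Elements that STAT factors themselves bind had shares near those of the whole list. The gamma-activated site TTCNNNGAA, where N is any base, occurred in 5 of the 40 regions (12.5%), against 12.39% of the list, and the STAT6-type site with 4 bases between TTC and GAA in 4 (10.0%), against 10.55%. The core of the interferon-stimulated response element (GAAA, 2 bases, GAAA) occurred in 2 (5.0%), against 7.37%. In own promoter regions the gamma-activated site was found in STAT4 as TTCCTAGAA and in the outer JAK1 region as TTCAGAGAA. The STAT6-type site was found in the STAT6 start region, as shown above, and in STAT4 as TTCTCATGAA.

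Letters of B cell and blood factors were counted in the same way. The PU.1 letters GAGGAAGT occurred in 5 regions (12.5%), against 5.14% of the list, and lay in the strongest promoter regions of both JAK1, 51 bp from the centre, and STAT6, 64 bp from it. The octamer ATGCAAAT, bound by OCT factors, occurred in 3 (7.5%, against 3.3%), one of them the strongest STAT4 promoter region, and NF-kB letters (GGGA, 2 bases, TTCC) in 3 (7.5%, against 3.01%), among them the STAT6 downstream region and the only JAK3 region, as GGAAAGTCCC. RUNX letters (TGTGGTT) occurred in 4 (10.0%, against 11.56%), among them the strongest region of STAT2 and the region shared by STAT5A and STAT5B, which also held the only EBF1 match (TCCC, 2 bases, GGGA; 2.5%, against 2.27%). AP-1 letters (TGANTCA) occurred in 3 (7.5%, against 16.91%) and E2A letters (CAGCTG) in 10 (25.0%, against 29.36%).

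The remaining letters belong to factors found in most cell types. The SP letters GGGCGG occurred in 17 of the 40 regions (42.5%, against 33.99%) and the NFY letters CCAAT in 20 (50.0%, against 45.4%). Within promoter regions alone the SP letters were in 10 of 17, against 68.94% in the list, and the NFY letters in 6 of 17, against 42.8%. The NRF1 letters (GCGC, 1 base, TGCGC) occurred in 3 (7.5%, against 3.24%), among them the strongest JAK2 region and the JAK3 region. Within promoter regions alone they were in 2 of 17, against 8.78%. The cyclic AMP response element TGACGTCA occurred in 2 (5.0%, against 1.27%), one of them the STAT3 promoter region, the E-box in 5 (12.5%, against 9.59%) and CTCF letters in 2 (5.0%, against 1.61%). The ETS letters CCGGAAGT occurred in none, against 2.76% of the list and 6.76% of its promoter regions. With 40 regions, most of these counts are 5 or fewer, and a match is a description of the letters only.

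The genes around the 9 in the pathway were read by the same promoter rule, against the 57.2% of all genes. Of 31 cytokine receptor chains, 17 had a promoter region (54.8%, exact binomial interval 36.0 to 72.7). The strongest were LEPR (score 3538.02, a region it shares with LEPROT), the interleukin-6 signal chain IL6ST (488.16), the interleukin-21 receptor IL21R (387.69) and the interferon-gamma receptor chain IFNGR1 (282.06). CRLF2, CSF2RA, CSF2RB and CSF3R came first in alphabetical order among those with none. The sequence of CRLF2 and CSF2RA is present on both X and Y, whose part in this was not tested. Of 19 inhibitors, 16 had one (84.2%, 60.4 to 96.6), led by SOCS5 (500.34), the adaptor SH2B3 (490.59), PIAS3 (282.06) and the phosphatase PTPN6 (244.43). The 3 without were PIAS4, the phosphatase PTPRC and the feedback inhibitor SOCS3. Of 20 targets and partners, 19 had one (95.0%, 75.1 to 99.9), led by ID2 (885.6), STAM2 (875.02), the interferon-regulated factor IRF1 (380.65) and the survival gene BCL2L1 (220.56), with GAB2 the exception. The intervals cover the number of genes only, the lists too were chosen with earlier results known, and they were not tested against each other.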

How the data were processed

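Single GM12878 cells were profiled by ATAC-seq after fixation, bulk transposition and sorting (96 and 95 libraries). The methods of the study say that the authors removed adapter sequence, aligned read pairs to hg19 (Bowtie2 2.1.0; Picard 1.79 in the submitters' notes), kept uniquely mapped, non-duplicate, nuclear reads, ran MACS2 on aggregated cells, and retained the 50000 summits with the smallest q-values. Whether libraries that failed a later quality filter were among the aggregated cells is not stated. The deposited score is the -log10 of that q-value. It gives no reads per cell, so depth is unknown and no replicate comparison or test was possible. It depends on pooled depth and local background, and cells with many fragments weigh more.

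Regions were placed by their centre (hg19, 1-based) on GENCODE 44 genes mapped to GRCh37, chromosomes 1 to 22 and X, with Python 3.11.15, pandas 2.3.3 and pysam 0.24.0. The principal TSS is that of the Ensembl canonical transcript. Intervals are exact binomial at 95%. The placement was tested on simulated regions. Motifs were exact consensus matches on either strand, 17 in all. Sequence uniqueness was counted over all words of 75 bases of the reference. The members and lists were chosen with earlier results of these data known. All 9 members are named, with the 4 strongest genes of each pathway list and up to 4 without a promoter region in alphabetical order. Genes outside these that share a region are named where needed. Some genes are not reported by name here. Alternatives changed the promoter window, the TSS set, the flank, the placement, the part of the list and the motif window.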

Additional observations from a re-analysis of the deposited data

How the results depend on the processing

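Of the results under 13 alternative settings, 55 of 60 values kept within 1.5 times the main count, or within the interval of the median. That interval was wide: promoter medians of 37.8, 120.2 and 143.5 counted as within it, against 66.1. Leaving out the regions at the lowest score could not change the values of the 9 genes, whose lowest score was 17.3. A window of 2.5 kb could not lose a promoter region. All 9 genes kept a promoter region with a window of 500 bp or 2.5 kb, with starts of protein-coding transcripts, without the regions at the lowest score and with 1 region per called peak. The count was 8 with the outermost TSS (STAT6 lost), with the principal TSS, chosen after seeing the data (STAT5B lost), and in the stronger part of the list (JAK3 lost). The 40 regions became 26 with no flank and 24 in the stronger part of the list. In that part the median score of the regions that were not promoter regions of the 9 genes rose from 31.6 to 54.9, which follows from removing low scores. There the 5 regions with a gamma-activated site became 2. They became 3 with only the central part of each region searched, which is a shorter window. Of 199 values for single genes or motifs, 34 moved further, among them STAT2 and STAT3, which had 0 regions with no flank. No paired analysis was possible because 1 pooled list serves all libraries. The list ends by rank at 50000 regions, so weaker ones are not listed. JAK3, at 18.68, lies near the lowest score of 16.0.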
